A study of Homo sapiens with 6 samples.

Results

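The mRNAs of 10 genes that build and remodel actin filaments were followed in pulldowns with the FERRY complex. The genes are the cytoplasmic actins ACTB and ACTG1, the filament-severing protein cofilin (CFL1), the monomer-binding protein profilin (PFN1) and the Arp2/3 complex genes ACTR2, ACTR3, ARPC1B, ARPC2, ARPC3 and ARPC4. They were chosen by name, and each symbol matched 1 of the 60676 gene rows of the count table. RNA was sequenced from 6 pulldowns out of lysate of HEK 293 cells, an established line from human embryonic kidney, kept in suspension culture. In 3 of them the bait was the GST affinity tag alone, and in the other 3 it was the FERRY complex with the GST tag (GST-Ferry), which binds the endosomal GTPase RAB5. The count columns are named control or sample with a number, and control was read as GST and sample as GST-Ferry with the numbers kept, an assumption that rests on those words alone. Both baits were purified proteins on glutathione resin that met the same kind of lysate, no RNA of the input lysate was analysed here, and nothing in the labels says that replicates came from separate cultures. The p-values therefore measure only the spread between these libraries, which may be technical, and each value is relative to the total of its own library.

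Actin monomers assemble into filaments that shape the cell cortex, drive protrusions and move vesicles. Profilin delivers monomers to growing filament ends, cofilin severs and takes apart old filaments, and the Arp2/3 complex, in which ACTR2 and ACTR3 mimic an actin dimer, starts new branches on existing filaments. ACTB mRNA is a classic example of a transcript that is carried to a site in the cell and translated there, and on early endosomes branched actin made by Arp2/3 takes part in cargo sorting.

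The cytoplasmic actins differ little in coding sequence, which bears on how far their reads can be told apart. In the GENCODE 29 transcripts (GRCh38) the coding sequences of ACTB and ACTG1 both had 1128 bases and differed at 99 of them, an identity of 91.2%, and 94 of the differences lay at the third codon position. The longest run without a difference was 59 bases. The first 60 bases, where the proteins also differ, are given below 5′ to 3′, with differing bases in capitals.
ACTB, bases 1 to 60: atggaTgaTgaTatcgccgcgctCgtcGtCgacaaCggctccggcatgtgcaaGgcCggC
ACTG1, bases 1 to 60: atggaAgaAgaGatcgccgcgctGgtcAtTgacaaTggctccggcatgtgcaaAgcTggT
The number of differences in 60 bases varied along the sequence, from 1 at the fewest to 10 at the start and 13 in bases 46 to 105. Over the whole transcript, 10.9% of the 50-base and 2.88% of the 75-base stretches of ACTB, and 4.03% and 0 of those of ACTG1, occurred in a transcript of another annotated gene. The read length was not given in the sources used here. The 12 annotated ACTB pseudogenes held 0.263% as many counts as ACTB itself and the 21 of ACTG1 held 0.601%, so few of the counts lay in pseudogenes. The pseudogene counts of CFL1 (1.6%), ARPC3 (1.59%) and PFN1 (0.445%) were also low beside those of the gene.

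Library totals ran from 7390346 to 10466520 counts with GST and from 2454538 to 6532665 with GST-Ferry, and a floor of 3 counts lay between 0.287 and 1.22 CPM (normalised read counts, scaled to the total of each library), for counting error only. All 6 HEK 293 marker genes examined were detected, with VIM the highest at 725 ± 75 CPM in the GST pulldowns (mean ± SD, n = 3). CD3E, MYH2 and HBB were at 0 in every library, PTPRC, DES and ALB stayed under 1 CPM, and of the fibroblast collagens COL1A2 stayed under 2 CPM while COL1A1 had 35.4 ± 17.6 CPM for GST and 52.2 ± 3.78 CPM for GST-Ferry. GST 3 stood apart from the other GST libraries by base composition: relative to GST 1 and 2, genes with a GC content above 50% had a median of -0.47 on the log2 scale there, and the others 0.31. The genes of the FERRY subunits took 0.0359% to 0.0504% of counts in the GST libraries and 0.249%, 2.72% and 5.35% in GST-Ferry 1, 2 and 3. In this share, which covers the FERRY subunit genes alone, GST-Ferry 1 lay nearest to GST. With these genes removed the same member passed the test. Values without GST 3 and GST-Ferry 1 are given where they matter. Differences were tested for each of 15546 genes in edgeR's quasi-likelihood fit, and the p-values were adjusted over all of them after Benjamini and Hochberg. Adjusted p-values below are from this fit unless another tool is named. At an adjusted p under 0.05, 0.592% of genes were higher with GST-Ferry and 0.0322% were lower. All 10 members passed the filter on low counts, 1 was called higher and none lower at this threshold, while an unadjusted p under 0.05 held for 4 in the higher and 0 in the lower direction (11.3% and 8.05% of all tested genes).

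Together the 10 members took 0.483%, 0.448% and 0.46% of counts in GST 1, 2 and 3, and 0.632%, 0.732% and 0.713% in GST-Ferry 1, 2 and 3. The GST-Ferry libraries all lay above the GST libraries, and most of this share was actin. All 10 members had a log2 fold change (GST-Ferry over GST) above 0, where 47.8% of all tested genes did. Their median was 0.49, with a range from 0.23 for ARPC2 to 1.07 for PFN1, against a median of -0.03 over all tested genes. For 5 members all GST-Ferry libraries lay above all GST libraries in CPM, which held for 11.9% of all tested genes. For 0 members the GST-Ferry libraries all lay below (13.9% of all tested genes). Which members did not overlap depended on the scaling. In log2 CPM scaled by TMM, the scaling also used for the test on counts, ACTG1 overlapped and ARPC2 did not.

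**Figure D1:**
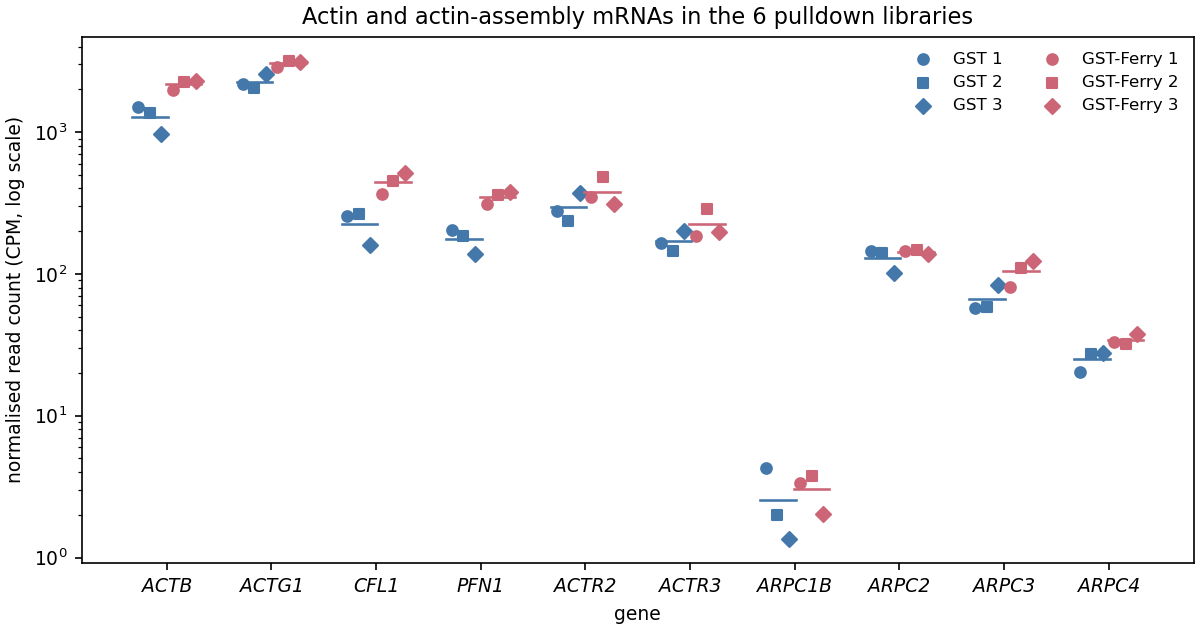
Normalised read counts (CPM, log axis) of the 10 member genes in each library, with circles, squares and diamonds for replicates 1, 2 and 3, GST in blue, GST-Ferry in red and a line at each group mean. The red points lie wholly above the blue ones for ACTB, ACTG1, CFL1, PFN1 and ARPC4, and the groups overlap for ACTR2, ACTR3, ARPC1B, ARPC2 and ARPC3.

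The mRNA of profilin, PFN1, was the member that rose with GST-Ferry, to about 2 times its level with GST, and that of cofilin, CFL1, differed by as much but fell just short of the threshold. PFN1 had 204, 184 and 139 CPM in GST 1, 2 and 3 and 309, 360 and 377 CPM in GST-Ferry 1, 2 and 3. Its groups did not overlap, with the lowest GST-Ferry library about 1.5 times the highest GST library. The means were 175 ± 33.4 and 349 ± 35.1 CPM (SD, n = 3 each), a log2 fold change of 1.07 ± 0.20 (SE) with an adjusted p of 0.045 (edgeR). The call was near the threshold. With the same test it was lost with RLE size factors (adjusted p = 0.053) and with library sizes alone (0.0698). It was also lost on leaving out GST 1 (0.0508), GST 2 (0.11), GST-Ferry 2 (0.425) or GST-Ferry 3 (0.411). Without GST-Ferry 2 or GST-Ferry 3, only 0 and 3 of all tested genes were called higher. Limma-voom gave PFN1 an adjusted p of 0.0573, and its log2 fold change stayed between 0.83 and 1.2 over all alternatives.

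CFL1 had 256, 263 and 160 CPM in GST 1, 2 and 3 and 366, 454 and 517 CPM in GST-Ferry 1, 2 and 3. Here too every GST-Ferry library lay above every GST library, and GST 3 was the lowest of all. The log2 fold change was 1.07 ± 0.23 (SE; 95% interval 0.57 to 1.56), with an adjusted p of 0.0533 (edgeR). The gene passed with DESeq2 (adjusted p = 0.00135), which called 3.43% of all genes higher. By edgeR it passed when GST 3 (adjusted p = 0.0176, with 4.45% of all genes called higher) or GST-Ferry 1 (0.0443, with 0.675%) was left out. It did not pass when GST 1 (0.0585), GST 2 (0.11), GST-Ferry 2 (0.425) or GST-Ferry 3 (0.449) was left out. Of the 18 alternatives it passed in 7. GENCODE 29 places PFN1 on the minus strand of chromosome 17 (4945652 to 4949061) and CFL1 on the minus strand of chromosome 11 (65823022 to 65862026, GRCh38). Each has an opposite-strand overlap, PFN1 with ENO3 and CFL1 with MUS81 and SNX32, and the strand setting of the counting was not given. ENO3 held 13 to 107, SNX32 3 to 21 and MUS81 68 to 586 counts per library, in each library fewer than PFN1 or CFL1.

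The actins themselves were by far the most abundant members, and both were higher in CPM in all GST-Ferry libraries without passing the test. ACTB had 1505, 1365 and 963 CPM in GST 1, 2 and 3 and 1983, 2259 and 2283 CPM in GST-Ferry 1, 2 and 3. ACTG1 had 2198, 2059 and 2555 CPM in GST pulldowns and 2862, 3187 and 3143 CPM in GST-Ferry pulldowns, in the same order. In CPM neither pair of groups overlapped, but GST 3 was the lowest GST library for ACTB and the highest for ACTG1. In TMM-scaled log2 CPM the groups overlapped for ACTG1. Relative to the GST mean it had 0.32 in GST 3 and 0.30 in GST-Ferry 1. The log2 fold change was 0.85 ± 0.22 (SE) for ACTB, with an adjusted p of 0.0809 (edgeR). For ACTG1 it was 0.49 ± 0.23 (95% interval -0.01 to 0.99; adjusted p = 0.266 in the same test). ACTB passed with DESeq2 (adjusted p = 0.00458), and both passed by edgeR without GST 3 and GST-Ferry 1, where 11.5% of all tested genes were called higher, with log2 fold changes of 0.85 for ACTB (adjusted p = 0.00343) and 0.76 for ACTG1 (adjusted p = 0.00885). Of the 18 alternatives ACTB passed in 3 and ACTG1 in 1, and without GST-Ferry 3 their adjusted p-values were 0.474 and 0.653 (edgeR). ACTB is on the minus strand of chromosome 7 (5527147 to 5563784) and ACTG1 on that of chromosome 17 (81509971 to 81523847, GRCh38).

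The balance between the actins within a library does not depend on the scaling between libraries. ACTG1 took 59.4%, 60.1% and 72.6% of the summed ACTB and ACTG1 counts in GST 1, 2 and 3 and 59.1%, 58.5% and 57.9% in GST-Ferry 1, 2 and 3. GST 3 stood alone, and the other 5 libraries lay within a few percentage points. The widest exact (Clopper-Pearson) 95% interval for counting error was 57.1% to 58.8%, in GST-Ferry 3. The group means were 64% ± 7.45 and 58.5% ± 0.571 (SD, n = 3 each), a difference of -5.54 percentage points (exact permutation test, two-sided, p = 0.1, the smallest that 3 against 3 can give). Without GST 3 the difference was -1.24 percentage points (exact permutation p = 0.2).

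**Figure D2:**
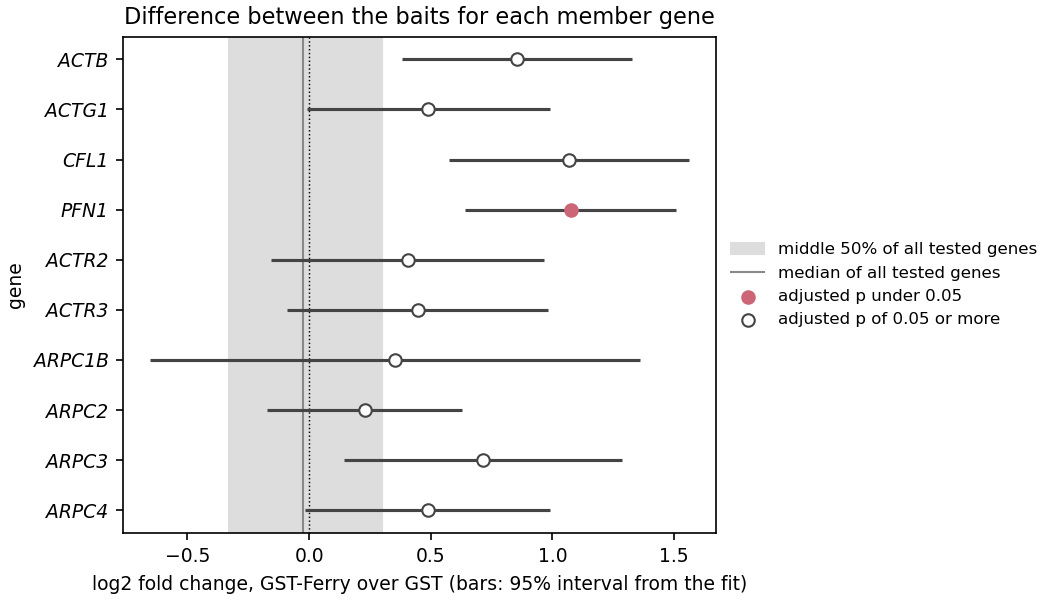
Log2 fold change (GST-Ferry over GST) of each member with its 95% interval from the edgeR fit. The filled point marks PFN1, the member with an adjusted p under 0.05, the grey band holds the middle 50% of all tested genes and the grey line is their median at -0.03.

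Among the 6 Arp2/3 genes 0 passed the test with edgeR or DESeq2, which called 0.592% and 3.43% of all tested genes higher. DESeq2 gave no adjusted p for ARPC1B. ARPC3 alone was higher at an unadjusted p under 0.05 with edgeR, which held for 11.3% of all tested genes. The log2 fold changes of the 6 genes spread from 0.23 for ARPC2 to 0.72 for ARPC3. ARPC3, a small structural subunit encoded on chromosome 12 (110434825 to 110450422, minus strand, GRCh38), had 57.6, 58 and 83.4 CPM in GST 1, 2 and 3 and 80.5, 111 and 124 CPM in GST-Ferry 1, 2 and 3. Only GST 3 and GST-Ferry 1 met, where GST 3 was slightly the higher. The log2 fold change was 0.72 ± 0.26 (SE; 95% interval 0.14 to 1.29), with an adjusted p of 0.177 (edgeR). Without GST 3 it was 0.97 and passed (adjusted p = 0.0136), and without GST 3 and GST-Ferry 1 it was 1.21 (adjusted p = 6.8e-05). In these settings 4.45% and 11.5% of all tested genes were called higher. The value for ARPC3 was 0.56 without GST 1, 0.58 without GST 2 and 0.52 without GST-Ferry 3 (adjusted p = 0.282, 0.318 and 0.602, edgeR). Of the 18 alternatives ARPC3 passed in 3.

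ACTR2 and ACTR3, the actin-related proteins at the core of the complex, varied together across the libraries. Both genes are on the plus strand of chromosome 2, ACTR2 at 65227753 to 65271253 and ACTR3 at 113889960 to 113962596 (GRCh38). The 3′ untranslated region made up 5141 of the 6718 bases of the ACTR3 transcript and 2519 of the 3861 bases of that of ACTR2. ACTR2 had 278, 237 and 373 CPM in GST 1, 2 and 3 and 347, 479 and 311 CPM in GST-Ferry 1, 2 and 3. ACTR3 had 165, 145 and 201 CPM in GST pulldowns and 186, 287 and 196 CPM in GST-Ferry pulldowns. For both genes GST-Ferry 2 was the highest library, and GST 3 exceeded GST-Ferry 1 and GST-Ferry 3. The log2 fold changes were 0.40 ± 0.26 and 0.45 ± 0.25 (SE), with adjusted p-values of 0.412 and 0.344 (edgeR). Without GST-Ferry 2 they were 0.13 and 0.15, for ACTR2 the value was 0.22 without GST 2 and 0.68 without GST 3, and without GST 3 and GST-Ferry 1 they were 0.81 (adjusted p = 0.00532) and 0.83 (adjusted p = 0.00267).

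ARPC2, which forms part of the scaffold that touches the mother filament, was the most even member. Its gene is on the plus strand of chromosome 2 (218217094 to 218254356, GRCh38). It had 145, 141 and 101 CPM in GST 1, 2 and 3 and 144, 147 and 138 CPM in GST-Ferry 1, 2 and 3. Apart from GST 3, the libraries lay close together. The log2 fold change of 0.23 ± 0.19 (SE) had a 95% interval from -0.17 to 0.63, and it was 0.11 without GST 3, 0.15 without GST-Ferry 2 and 0.15 with library sizes alone. ARPC4, the partner of ARPC2 in that scaffold, from chromosome 3 (9792495 to 9807726, plus strand), had 20.4, 27.4 and 27.6 CPM in GST pulldowns and 32.9, 31.8 and 37.5 CPM in GST-Ferry pulldowns, with no overlap between the groups (log2 fold change 0.49 ± 0.23, adjusted p = 0.272, edgeR). Without GST 3 and GST-Ferry 1 the log2 fold change of ARPC4 was 0.72, with an adjusted p of 0.0269 in that test, and without GST 1 it was 0.30 (adjusted p = 0.519).

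ARPC1B, the WD-repeat subunit, was barely counted in either group. It had 40, 21 and 10 counts in GST 1, 2 and 3 and 22, 10 and 5 counts in GST-Ferry 1, 2 and 3, or 1.35 to 4.26 CPM. No difference was detectable with so few counts (log2 fold change 0.35 ± 0.47, 95% interval -0.65 to 1.36). With 1 library left out it ran from 0.10 (without GST 3) to 0.86 (without GST 1), and it was 0.17 without GST 2 and 0.15 without GST-Ferry 2. The ARPC1B span on chromosome 7 (99374249 to 99394816, plus strand, GRCh38) lies almost entirely within that of AC004922.1, a protein-coding gene model on the same strand (99325879 to 99394653) that also spans ARPC1A. Of the 75-base stretches of the ARPC1B transcript, 77.1% also occurred in AC004922.1, and 75.4% of those of ARPC1A did. AC004922.1 itself held between 0 and 6 counts per library, and with these added the log2 fold change of ARPC1B was 0.17. How the authors' counting treated reads that fit 2 genes was not given, so the levels of ARPC1A and ARPC1B are uncertain. ARPC4 shared 18.6% of its 75-base stretches with the read-through gene ARPC4-TTLL3, which held at most 1 count per library. It shared 10.7% with the opposite-strand gene TADA3, which held 204 to 639 counts per library, in each library more than ARPC4. ARPC1B shared 2.01% with its own opposite-strand neighbour PDAP1, which held 233 to 706 counts per library, in each library more than ARPC1B. The strand setting of the counting was not given, so the level of ARPC4 is uncertain too.

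Per length of transcript the order of the levels was the same at the top with both baits. ACTG1 led with 1129 ± 127 CPM per kilobase with GST, followed by ACTB with 705 ± 155, CFL1 with 183 ± 46.8 and PFN1 with 136 ± 25.8 (SD, n = 3 each), where only the ranges of CFL1 and PFN1 overlapped. ARPC2 at 80.3 ± 15.3, ACTR2 at 76.7 ± 18.1 and ARPC3 at 65.4 ± 14.5 CPM per kilobase overlapped with their neighbours in that order. ACTR3 followed at 25.4 ± 4.2, ARPC4 at 9.74 ± 1.58 and ARPC1B at 1.62 ± 0.975 CPM per kilobase, each below its neighbour in all 3 GST libraries. The level of ARPC1B is uncertain, because most of its sequence is shared with AC004922.1. With GST-Ferry the order was again ACTG1 (1524 ± 87.7), ACTB (1200 ± 91.8), CFL1 (361 ± 61.3) and PFN1 (270 ± 27.2), while ARPC3 (104 ± 22.1), ACTR2 (98.2 ± 23) and ARPC2 (89.2 ± 2.78) overlapped and had no settled order.

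Across the 6 libraries the members fell into separate profiles, and GST 3 set them apart. Relative to the mean of GST 1 and GST 2, the scaled log2 CPM in GST 3 was lower for ACTB (-0.35), CFL1 (-0.48), PFN1 (-0.26), ARPC2 (-0.28) and ARPC1B (-0.78). It was higher for ACTR2 (0.76), ARPC3 (0.75), ACTR3 (0.60), ACTG1 (0.49) and ARPC4 (0.44). ACTB, CFL1 and PFN1 followed one another closely (Pearson r of log2 CPM 0.98 to 0.99 over 6 libraries, a description that includes the difference between baits), as did ACTR2 with ACTR3 (0.97) and ACTG1 with ARPC3 (0.98). ACTB and ACTG1 were less alike (0.69).

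This split went with base composition. The GC content of the transcript was 35.7% for ACTR3, 38.1% for ACTR2 and 43.8% for ARPC3, and 55.2% for ACTB, 58.5% for PFN1 and 59.1% for CFL1. Over the 10 members the difference of GST 3 from GST 1 and 2 had a Pearson r of -0.74 with GC content, and over 15437 tested genes it was -0.66; all points share the same libraries. ACTG1 (55.5% GC) and ARPC4 (53.5% GC) were higher in GST 3 and ARPC2 (48.7% GC) was lower, against that relation. The part of base composition in the difference between the baits was not tested beyond the fit with offsets. With per-library offsets for GC content and transcript length, chosen after seeing the data, the log2 fold change was 0.69 for ACTB, 0.28 for ACTG1, 0.82 for CFL1 and 0.83 for PFN1. It was 0.76 for ACTR2, 0.88 for ACTR3 and 0.95 for ARPC3. CFL1 (adjusted p = 0.0413), PFN1, ACTR3 (0.0495) and ARPC3 (0.04998) passed edgeR's quasi-likelihood test with these offsets, where 1.68% of all genes were called higher.

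**Figure D3:**
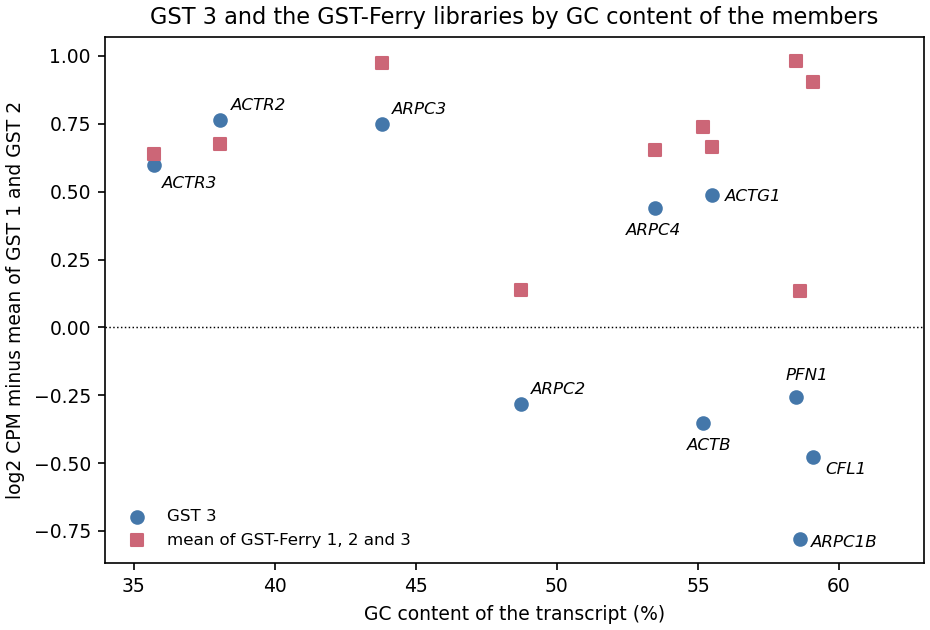
Scaled log2 CPM minus the mean of GST 1 and GST 2 for each member, against the GC content of its transcript in percent, for GST 3 (blue circles, labelled) and for the mean of the GST-Ferry libraries (red squares). GST 3 runs from 0.76 for ACTR2 at 38.1% GC to -0.78 for ARPC1B at 58.6% GC, while all red squares lie above 0.

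Of the paralogs of the members and the further Arp2/3 subunits ARPC5 and ARPC5L, 8 genes were tested. Among these 8, 5 had a log2 fold change above 0 and 0 passed with edgeR or DESeq2. At an unadjusted p under 0.05, edgeR had ACTA2 and ARPC5L higher and 0 lower. The muscle and enteric actins ACTA1, ACTC1 and ACTG2 had means under 1 CPM with both baits and were not tested. ACTA2, smooth muscle actin, had 12 ± 2.14 CPM in GST pulldowns and 19.4 ± 2.7 CPM in GST-Ferry pulldowns (log2 fold change 0.75 ± 0.24, adjusted p = 0.133, edgeR). CFL2, the muscle-type cofilin, had 70.4, 76.8 and 196 CPM in GST 1, 2 and 3 and 82.2 ± 7.02 CPM with GST-Ferry, so GST 3 alone was high. Its log2 fold change was -0.47 ± 0.37, and 0.27 without GST 3. Destrin, DSTN, of the same family had 0.20 ± 0.25, and the neuronal profilin PFN2 had 0.05 ± 0.26 on the log2 scale. Of the other Arp2/3 subunits, ARPC5L had a log2 fold change of 0.48 ± 0.21, ARPC1A of 0.13 ± 0.28, ACTR3B of -0.08 ± 0.20 and ARPC5 of -0.32 ± 0.34, and none passed the test (lowest adjusted p = 0.242). With 1 library left out, DSTN ran from 0.0067 (without GST 1) to 0.54 (without GST 3, adjusted p = 0.0394 in edgeR), PFN2 from -0.17 (without GST 2) to 0.35 (without GST 3) and ARPC1A from -0.07 (without GST 1) to 0.45 (without GST 3). ARPC5 was again highest in GST 3, at 133 CPM against 53.7 to 66.2 CPM in the other 5 libraries, and its log2 fold change was 0.32 without GST 3.

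Of 111 listed genes of actin regulation, the genes just described included and the members not, 103 were tested. By edgeR 2 were called higher with GST-Ferry and 0 lower, and 22 higher and 3 lower genes had an unadjusted p under 0.05. DESeq2 called 7 higher and 0 lower. Over all tested genes edgeR called 0.592% higher and 0.0322% lower, and DESeq2 called 3.43% higher. An unadjusted p under 0.05 held for 11.3% in the higher and 8.05% in the lower direction. The median log2 fold change of the 103 listed genes was 0.18, with 66 above 0. Over all tested genes the median was -0.03, with 47.8% above 0. The listed genes called by edgeR were TWF2 and CORO1B. Twinfilin 2, TWF2, which binds actin monomers and filament ends, had 9.15 ± 2.66 CPM in GST pulldowns and 21.1 ± 1.96 CPM in GST-Ferry pulldowns (SD, n = 3 each; log2 fold change 1.28 ± 0.26). Coronin 1B, CORO1B, which acts on Arp2/3 branches, had 35 ± 10.7 and 73.4 ± 10.9 CPM (log2 fold change 1.15 ± 0.23). Both had an adjusted p of 0.0477 (edgeR). Both calls were lost with RLE size factors (0.0559), library sizes alone, limma-voom, and when GST 2 or any 1 of the 3 GST-Ferry libraries was left out, and that of TWF2 also at equal depth.

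The lists differed in their medians. Tropomyosins and non-muscle myosin II had a median of 0.40 over 10 tested genes, and MYH9, the most abundant, had 404 ± 174 and 504 ± 16.2 CPM. Crosslinkers and membrane linkers had a median of 0.30 over 15 genes, and plastin PLS3, the most abundant, had 1275 ± 252 and 1483 ± 146 CPM.

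Cofilin regulators had a median of 0.19 over 13 genes. WDR1, the most abundant over both baits, which helps cofilin take filaments apart, had 117 ± 20.7 CPM in GST pulldowns and 214 ± 40.4 CPM in GST-Ferry pulldowns (SD, n = 3 each; log2 fold change 0.95 ± 0.21, adjusted p = 0.0608, edgeR). CAP1, which recycles actin monomers and was the most abundant in the GST pulldowns (144 ± 13.2 CPM), had a log2 fold change of 0.19 ± 0.19 (named after its values were seen). Capping and severing genes had a median of 0.17 over 12 genes, with FLII, the most abundant over both baits, at a log2 fold change of 0.53 ± 0.25 and CAPZA1, the most abundant with GST and named after its values were seen, at 0.18 ± 0.20. The thymosins had a median of 0.06 over 3 genes, with TMSB10 at 0.53 ± 0.29. Arp2/3 activators and inhibitors had a median of -0.02 over 23 genes, with CYFIP2 of the WAVE complex, the most abundant over both baits, at 0.51 ± 0.21. NCKAP1 of the same complex, the most abundant with GST and named after its values were seen, was at -0.13 ± 0.24. Formins, which build unbranched filaments, had a median of -0.05 over 13 genes, with DIAPH1, the most abundant, at 0.23 ± 0.20. For 3 formins all GST-Ferry libraries lay below all GST libraries in CPM, and for 0 they lay above (13.9% and 11.9% of all tested genes). The medians of the last pair of lists lay close to that of all tested genes.

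**Figure D4:**
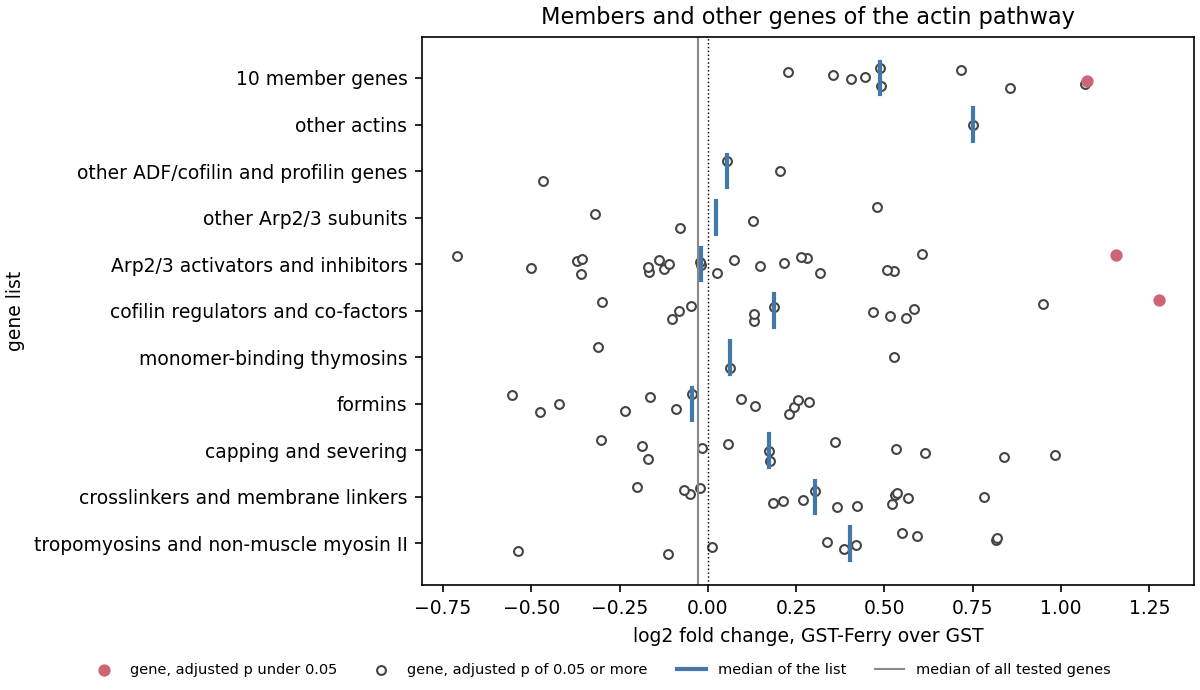
Log2 fold change (GST-Ferry over GST) of the tested genes of the actin lists described here, 1 point a gene, with a blue bar at the median of each list and a grey line at the median of all tested genes (-0.03). Filled points mark PFN1, CORO1B and TWF2, the genes with an adjusted p under 0.05, and the medians run from -0.05 for formins to 0.75 for ACTA2, the single tested gene of its list.

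The genes outside the actin lists whose profile over the 6 libraries lay nearest to the mean profile of the members were NUTF2, GEMIN4, HK2, PAPSS1 and APOBEC3C. They were found among 10876 genes averaging 10 CPM or more, by the Euclidean distance of centred log2 CPM, which was 0.08 for NUTF2 and between 0.13 and 0.14 for the other 4. NUTF2, the carrier that returns RAN to the nucleus, had 86.2 ± 4.69 CPM in GST pulldowns and 128 ± 13.5 CPM in GST-Ferry pulldowns (SD, n = 3 each). Its log2 fold change was 0.64 ± 0.19, and none of the 5 passed the test (edgeR, adjusted p = 0.096 to 0.139). The 5 genes were chosen on these same values, bait difference included, so their fold changes are no separate evidence.

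The sign of the members' difference was the same under every alternative analysis that tested them, while the calls moved with the libraries. Over 18 alternatives all 178 fitted values of the 10 members were above 0, and 29 of them passed the threshold, 8 of these without GST 3 and GST-Ferry 1. For the 5 members without overlap between the groups, leaving out a library could not change which group was the higher in CPM. ARPC1B and ARPC2 passed in none of the alternatives. Without GST 3 and GST-Ferry 1 the other 8 members passed edgeR's quasi-likelihood test, and 11.5% of all tested genes were called higher. The median log2 fold change over the 10 members was 0.82 there. This setting leaves out the GST-Ferry library in which the members were lowest on average, which by itself raises the mean difference. Their mean log2 level over GST was 0.40, 0.80 and 0.67 in GST-Ferry 1, 2 and 3. Without GST-Ferry 2 or without GST-Ferry 3 none passed (3 members each at an unadjusted p under 0.05). Few genes of any kind passed there. Of 16307 and 16312 tested genes, 0 and 3 were called higher by edgeR, and 910 and 881 were higher at an unadjusted p under 0.05.

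**Figure D5:**
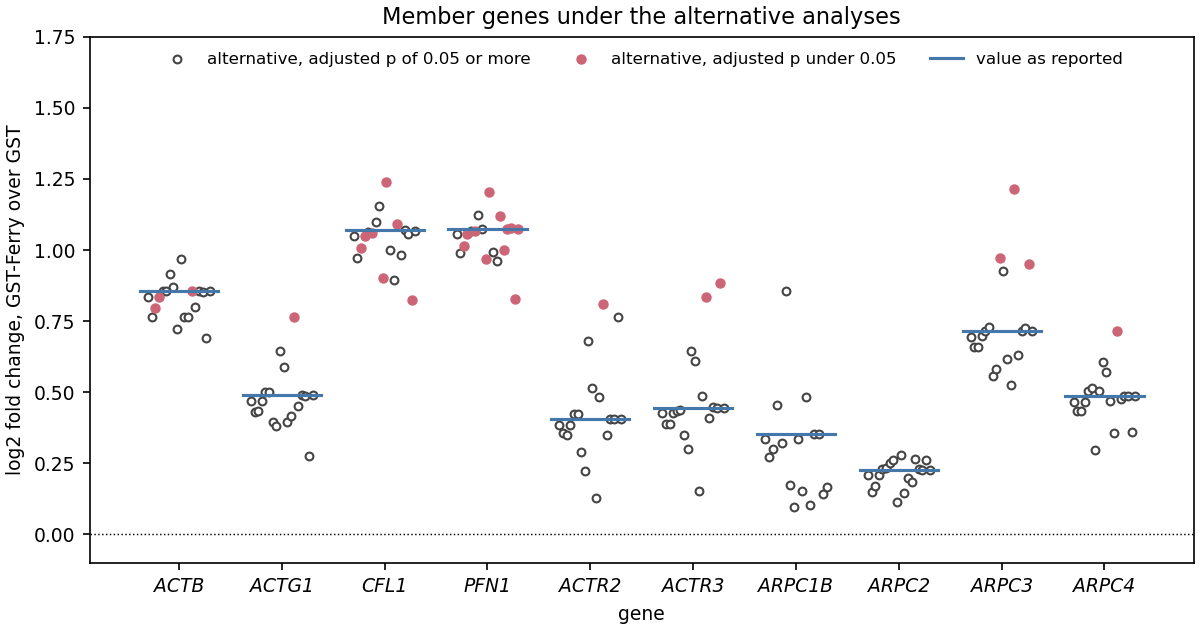
Log2 fold change (GST-Ferry over GST) of each member under up to 18 alternative analyses (1 point each), with a blue line at the reported value and filled points where the adjusted p was under 0.05. All points lie above 0, from 0.10 for ARPC1B to 1.24 for CFL1, and filled points are absent for ARPC1B and ARPC2.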

How the data were processed

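The authors deposited 1 table of raw read counts per gene for the 6 libraries. The submitters' processing notes list STAR 2.5.2b, bcl2fastq 2.19.1 and build GRCh38.p13; per the labels' protocols, RNA was depleted of ribosomal RNA and libraries were strand-specific. Not given in the sources used here are the counting program, its annotation, its strand setting and how it treated reads with more than 1 match. Symbols matched 60357 of 60676 IDs; positions, lengths and sequences came from GENCODE 29, with 1 coding transcript a gene (best APPRIS rank, paired with RefSeq, longest). Genes were filtered with filterByExpr (minimum count 10, minimum total 15), scaled by TMM (factors 0.923 to 1.1) and tested, two-sided and without covariates, in edgeR 4.0.16 under R 4.3.3 on GST 1 to 3 and GST-Ferry 1 to 3, after a test on simulated data. CPM were computed from the deposited totals; SE and 95% intervals come from the fit. Every pair of replicates of a bait differed beyond counting noise (chi-square over degrees of freedom 4.43 to 50.3). Alternatives used RLE or no scaling, no filter, DESeq2 1.42.0, limma-voom (limma 3.58.1), the replicate number, left-out libraries, equal depth, and removed or added counts (FERRY subunits, pseudogenes); GC and length offsets and added read-through counts were chosen after seeing the data. Named genes were all members, their paralogs, ARPC5 and ARPC5L, and called genes of the actin lists. The most abundant gene of each list and the 5 nearest profiles were also named. Members and lists were chosen with earlier results of these data known. Figures used matplotlib 3.10.9. Of the further actin genes, 1 list enters the counts but is not reported here on its own.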

Additional observations from a re-analysis of the deposited data

How the results depend on the processing

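Counts of called genes depended strongly on scaling, tool and libraries. Of all tested genes, 92 were higher and 5 lower with GST-Ferry by edgeR; these numbers were 11 and 0 with RLE size factors, 7 and 0 with library sizes alone, 421 and 323 with no filter, 534 and 177 with DESeq2, 14 and 0 with limma-voom, 259 and 40 with GC and length offsets, and 1754 and 992 without GST 3 and GST-Ferry 1. At equal depth 29 were lower. Leaving out 1 library gave 0 to 701 higher and 0 to 558 lower genes (0 of both without GST-Ferry 2, where 910 and 794 had an unadjusted p under 0.05; the upper ends without GST 3). Of the members 1 was higher, against 0 with RLE size factors, library sizes alone and limma-voom (4, 5 and 5 at an unadjusted p under 0.05), 3 with no filter and with DESeq2, 4 with GC and length offsets, 8 without GST 3 and GST-Ferry 1, and 0 to 3 with 1 library left out. Of the listed actin genes outside the members 2 were higher, against 0 with RLE size factors, library sizes alone and limma-voom (21, 17 and 22 at an unadjusted p under 0.05), 6 with no filter (where 1 was lower), 7 with DESeq2, 5 with GC and length offsets, 29 without GST 3 and GST-Ferry 1, and 0 to 14 with 1 library left out. The cause was not tested. The deviations of same-numbered libraries of the baits had correlations of 0.246, 0.0793 and -0.133. That of GST 1 with GST-Ferry 1 was the highest of all pairs across the baits. With 3 libraries a bait, these values cannot settle whether same-numbered libraries shared a batch. With the replicate number as a block, 167 genes were higher and 28 lower, 2 members (CFL1 and PFN1) and 3 of the other actin genes were higher, and the ACTG1 share differed by -5.54 percentage points (exact paired permutation p = 0.25, the smallest 3 pairs can give). Not every library correlated best with its own number. The share difference ranged from -7.88 to -1.24 with 1 library left out. Low counts limit ARPC1B, which fell below the filter at equal depth and had no adjusted p in DESeq2.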

Other observations

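Of the 6 genes examined as markers of HEK 293 cells, 1 passed the test. The keratin KRT18 rose with GST-Ferry, from a mean of 41.9 ± 11.8 CPM to 89.7 ± 8.25 CPM (SD, n = 3 each; log2 fold change 1.18 ± 0.22, adjusted p = 0.0427 in edgeR). KRT8, which pairs with it in filaments, had a log2 fold change of 1.05 ± 0.26, the neurofilament genes NEFL of 1.16 ± 0.25 and NEFM of 0.73 ± 0.36, and VIM of 0.64 ± 0.22, and these did not pass the test (adjusted p = 0.0753, 0.0589, 0.284 and 0.151 in edgeR). PAX2, a kidney transcription factor among the same markers, had 11.3 ± 3.63 and 11.1 ± 3.15 CPM.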
